A study of Mus musculus with 12 samples.

Results

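Toll-like receptors are membrane proteins that recognise molecules shared by many microbes. Those at the cell surface sense lipoproteins, lipopolysaccharide and flagellin, and through the adaptor protein MyD88 they recruit the IRAK kinases and the ubiquitin ligase TRAF6, which leads to activation of NF-kappaB and MAP kinases. In the airway, these receptors sit on epithelial cells, macrophages and dendritic cells, and Tlr4 in particular is known for its part in sensitization to inhaled allergens. N6-methyladenosine (m6A) is a methyl mark on adenosines inside mRNA that bears on splicing, translation and decay, and it is often found near stop codons, in 3' UTRs and in long internal exons.

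The genes examined were the receptors Tlr1, Tlr2, Tlr4, Tlr5 and Tlr6, the adaptor Myd88, the kinases Irak4, Irak1 and Irak2, and Traf6. A peak was taken when it was assigned to 1 of these 10 genes in the annotation or had been called on that gene's identifier. This gave 16 of 27292 peaks in the OVA list and 18 of 26102 peaks in the PBS list. Of the 10 genes, 9 had a peak in both lists and Myd88 had none in either.

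The peaks come from lung of female BALB/c mice aged 6 to 8 weeks. OVA mice were sensitized with ovalbumin in alum by intraperitoneal injection on days 0 and 7 and then breathed an aerosol of 3% ovalbumin for 30 min a day from day 14 to day 20. PBS mice, the controls, were injected with PBS, without alum, and breathed a PBS aerosol at the same times, so ovalbumin and alum cannot be told apart as treatments. On day 21 airway responses were tested with inhaled methacholine, a drug that narrows the bronchi. Lung RNA of 3 mice per group was used, and each mouse gave an input library of its fragmented RNA and an IP library of the fragments that an antibody to m6A captured. One pooled list of peaks per group was deposited, so no value below has a replicate error and nothing was tested between the groups. The strength of a peak is its fold enrichment, that is, its IP signal divided by its input signal. The lists hold no read counts per peak, so the depth behind a peak is unknown. Since each list was made separately, fold enrichments of the lists are set side by side and ranked only within a list, as the percentile among all peaks of that list. Whole lung holds many cell types, and fewer cells that express a gene, less of its RNA or less methylation cannot be told apart here. Positions are those of the lists. The study's methods name an Ensembl release for the alignment, and that release carries the GRCm38 assembly. Of the peaks called on protein-coding genes of RefSeq GRCm38.p6, 97.7% of those in OVA lung and 97.8% of those in PBS lung overlapped that gene's place in this build, and so did all 16 and 18 peaks of the genes examined.

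Every peak of these genes overlapped a peak of the other list. None of the 16 OVA peaks was without an overlapping PBS peak (0.0%, 95% Wilson interval 0.0 to 19.4%), while 19.4% of all OVA peaks were. None of the 18 PBS peaks was without an overlapping OVA peak (0.0%, interval 0.0 to 17.6%), while 14.5% of all PBS peaks were. Taken as 3 counts, the limit that a count of 0 allows is 18.8% of 16 OVA peaks and 16.7% of 18 PBS peaks. The OVA share of all peaks lies at the edge of these limits and the PBS share inside them, and both limits and intervals cover counting error only. When a counterpart had to have the same start and end, 14 of 16 OVA peaks and 16 of 18 PBS peaks lacked one, beside 89.7% and 89.3% of all peaks. When it had to share 50% of the exonic bases of both peaks, 3 OVA peaks and 5 PBS peaks lacked one, beside 31.4% and 28.3% of all peaks. When both lists were limited to a fold enrichment of at least 2, 1 of 14 OVA peaks and 0 of 15 PBS peaks lacked one, beside 19.5% and 14.4% of all peaks. By gene, 10.8% of the 14988 genes with a peak in either list had one in OVA lung only and 7.22% in PBS lung only, and none of the 9 genes with a peak fell in these classes.

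The peaks ranged widely in strength. In the OVA list the median of their fold enrichments was 7.56, where that of all peaks was 5.59, and in the PBS list it was 6.83, where that of all peaks was 5.44. In the OVA list 10 of 16 peaks, and in the PBS list 12 of 18 peaks, lay above the median of all peaks of that list. Receptor and signalling genes overlapped in strength. The median of the 10 OVA peaks on receptor genes was 11.0 and that of the 12 PBS peaks was 9.63, against 3.79 and 3.08 for the 6 peaks in each list on kinases and Traf6, but Traf6 had a peak stronger than most receptor peaks and Tlr5 had peaks of under 2.

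Tlr2 pairs with Tlr1 or Tlr6 to bind bacterial lipoproteins. The Tlr2 gene (ENSMUSG00000027995) carried 1 peak in each list, on chromosome 3, where it lies on the minus strand. The OVA peak ran from 83836271 to 83838569, a single exonic block of 2299 bp with a fold enrichment of 33.7, and the PBS peak ran from 83836271 to 83838599, 2329 bp with a fold enrichment of 22.7. These ranked at percentile 98.2 (OVA) and 95.3 (PBS) of their lists. Both were labelled 3' UTR, both began at the last bases of the assigned transcript, and both FDRs were read as 0. Within its own list each Tlr2 peak was therefore among the strongest and also among the widest, at percentile 99.4 and 99.5 of exonic width.

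Tlr1, the partner of Tlr2 for triacylated lipopeptides, is on the minus strand of chromosome 5 (ENSMUSG00000044827). At the 3' end of the transcript the OVA list had 1 peak, from 64924678 to 64925724, with 1047 exonic bp and a fold enrichment of 7.96. The PBS list had a pair of peaks in its place. The first ran from 64924857 to 64925336 with a fold enrichment of 6.23 and the second from 64925425 to 64925694 with a fold enrichment of 7.56, with 88 bp between them. The wide OVA peak was labelled 3' UTR, and both narrower PBS peaks were labelled exon 4 of 4. Further upstream both lists had a peak of 2 blocks labelled 5' UTR. It reached from 64926082 to 64930223 in the OVA list, with a fold enrichment of 12.0, and from 64926112 to 64930193 in the PBS list, with a fold enrichment of 12.9. Its larger block lay next to the peaks at the 3' end, with 1217 bp (OVA) and 1187 bp (PBS), and its smaller block, 70 and 40 bp, in an upstream exon.

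Tlr6, the partner of Tlr2 for diacylated lipopeptides, lies beside Tlr1 on chromosome 5 (ENSMUSG00000051498) and showed the same kind of difference in how peaks were divided. The OVA list had 1 peak from 64952894 to 64959978, with a block of 2700 bp, a second block of 46 bp in an upstream exon, a fold enrichment of 18.3 and the label 3' UTR. The PBS list had a peak from 64952924 to 64953551 (628 bp, fold enrichment 11.7, 3' UTR) and another from 64953699 to 64955369 (1671 bp, fold enrichment 20.2, exon 2 of 2), separated by 147 bp. No PBS peak covered the upstream block. Tlr1 and Tlr6 supplied the only 2 of 16 OVA peaks that overlapped 2 or more PBS peaks, a class that held 12.6% of all OVA peaks. None of the 18 PBS peaks overlapped 2 or more OVA peaks, while 12.1% of all PBS peaks did. Tlr1 and Tlr6 are close paralogs whose coding sequences are alike in part, and how reads that map to both were treated is not given in the sources used here, so their peaks may share reads.

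Tlr4, the receptor for lipopolysaccharide, carried 2 peaks in each list on the plus strand of chromosome 4 (ENSMUSG00000039005). The first ran from 66839231 to 66842040 with the same edges in both lists. It was 2810 bp wide and its fold enrichment was 28.9 among OVA peaks (percentile 97.2) and 24.3 among PBS peaks (percentile 96.3). No other peak of these genes covered more exonic bases in either list. The second began 177 bp downstream at 66842218 in both lists. It ended at 66842697 in the OVA list, with a fold enrichment of 6.65, and at 66842667 in the PBS list, with a fold enrichment of 6.39. Its log10 FDR was -109 for the OVA peak and -43.7 for the PBS peak. All 4 peaks were labelled 3' UTR and assigned to a processed transcript of Tlr4 that ends at 66839618, inside the first peak and upstream of the second. A filter for peaks on protein-coding transcripts would therefore remove Tlr4.

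Tlr5, the receptor for flagellin, had 4 peaks in each list on the plus strand of chromosome 1 (ENSMUSG00000079164), all in its last exon or 3' UTR. The strongest, labelled exon 4 of 4, ran from 182973319 to 182974518 in the OVA list, with a fold enrichment of 15.0, and from 182973289 to 182974547 in the PBS list, with a fold enrichment of 13.0. The weakest ran from 182974936 to 182975086 in the OVA list (fold enrichment 1.76) and from 182974786 to 182974996 in the PBS list (fold enrichment 1.80), and they shared 61 bp. The next ran from 182975205 to 182975445 in the OVA list, with a fold enrichment of 3.85 (percentile 36.3), and from 182975115 to 182975445 in the PBS list, with a fold enrichment of 5.74 (percentile 51.8). The last, labelled 3' UTR, ran from 182975654 to 182976044 in both lists. Here the OVA peak had a fold enrichment of 10 (percentile 70.3) and the PBS peak one of 5.35 (percentile 49.2). By percentile, these neighbouring peaks thus stood in opposite order between the lists. All but the first were assigned to the lincRNA Gm38079, although they had been called on Tlr5. The assigned Gm38079 transcript begins at 182976276, downstream of all these peaks and on the same strand, so the peaks lie outside the gene whose name they bear.

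**Figure D1:**
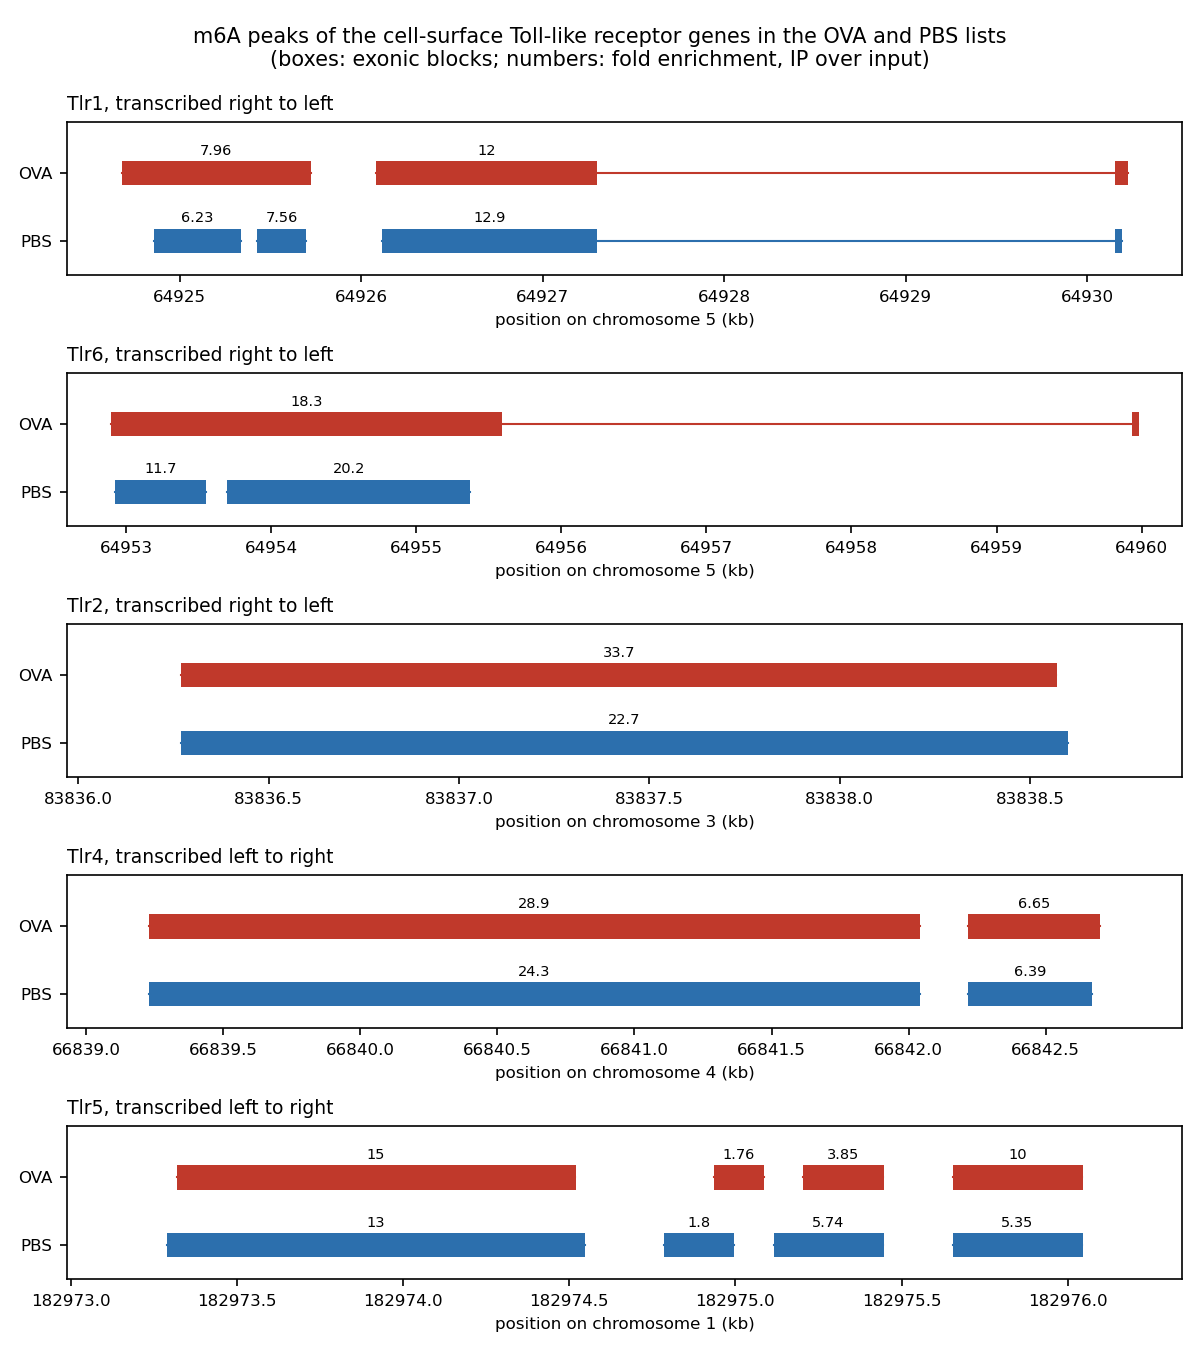
Peaks of the 5 cell-surface receptor genes along the chromosome (position in kb), OVA list above in red and PBS list below in blue; boxes are exonic blocks, lines join the blocks of 1 peak, and numbers are fold enrichments. The Tlr2 and Tlr4 peaks have nearly the same edges in both lists, while 1 OVA peak at the 3' end of Tlr1 and of Tlr6 faces 2 PBS peaks.

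Added over peaks, each receptor gene had a long stretch of exonic sequence under peaks. In the OVA list this was 1983 bp for Tlr5, 2299 bp for Tlr2, 2334 bp for Tlr1, 2746 bp for Tlr6 and 3290 bp for Tlr4. In the PBS list it was 1977 bp for Tlr1, 2192 bp for Tlr5, 2299 bp for Tlr6, 2329 bp for Tlr2 and 3260 bp for Tlr4. The median over all genes with a peak was 605 bp under OVA peaks and 602 bp under PBS peaks. Of all genes, 9.79% by OVA peaks and 9.46% by PBS peaks had at least as many bases under peaks as the receptor gene with the fewest. Irak4, Irak1, Irak2 and Traf6 had fewer than each of these receptors, between 302 and 1295 bp under OVA peaks and between 62 and 1235 bp under PBS peaks. This did not hold for the pathway at large. Of 29 further pathway genes that are not Toll-like receptors, 4 had at least as many as the lowest receptor in both lists, namely Tab2 (2999 bp OVA, 3031 bp PBS), Tnfaip3 (2675 and 2553 bp), Ticam1 (2427 and 2157 bp) and Tirap (2213 and 2153 bp). As background, receptors of this family have most of their coding sequence in 1 long exon, and the length of a transcript limits how much of it can lie under peaks, which was not corrected for.

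Myd88, the adaptor used by all the receptors above, had no peak in either list by assigned or called gene (ENSMUSG00000032508). Among its neighbours in RefSeq, Oxsr1 had 4 OVA peaks and 1 PBS peak, with highest fold enrichments of 30.4 and 38.0, Acaa1a had none, and Xylb had 2 OVA peaks and 1 PBS peak. Between the last Oxsr1 peak and the first Xylb peak, from 119322427 to 119392837 on chromosome 9 in the OVA list and from 119241092 to 119392867 in the PBS list, no peak was listed. The lists name only peaks that were called, so a level of Myd88 RNA or of its methylation cannot be read from them.

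Irak4 is the kinase that joins MyD88 first. Its only peak (ENSMUSG00000059883, chromosome 15, plus strand) differed most in rank between the lists. In the OVA list it ran from 94566770 to 94567186 in 2 blocks of 128 and 174 bp, with a fold enrichment of 3.50 (percentile 32.3) and a log10 FDR of -20.3. In the PBS list it ran from 94567036 to 94567097, 62 bp in all, with a fold enrichment of 1.67 (percentile 4.96) and an FDR of 0.0389. The PBS peak lay wholly inside the OVA peak and covered 20.5% of its exonic bases. When a fold enrichment of at least 2 was required, Irak4 had a peak in the OVA list only. Both peaks were labelled 3' UTR. The assigned protein-coding transcript ends 14629 bp further along the chromosome than the OVA peak.

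Irak1, a kinase phosphorylated by Irak4, had 1 peak in each list on the minus strand of chromosome X (ENSMUSG00000031392), labelled 3' UTR. It ran from 74014898 to 74015496 in the OVA list, with a fold enrichment of 4.07 (percentile 38.3), and from 74014928 to 74015466 in the PBS list, with a fold enrichment of 2.99 (percentile 26.8). Both were thus below the median strength of their list. Irak2, which acts beside Irak1 and sustains signalling, had 2 peaks in each list on chromosome 6 (ENSMUSG00000060477). The first, at exon 12 of 13, ran from 113690989 to 113692915 in the OVA list with a fold enrichment of 2.44, and from 113690989 to 113692885 in the PBS list with a fold enrichment of 3.16. The second, labelled 3' UTR, ran from 113693684 to 113694639 in the OVA list with a fold enrichment of 7.17, and from 113693093 to 113694609 in the PBS list with a fold enrichment of 7.28. The earlier start of the second PBS peak came from an added block of 14 bp. The stronger Irak2 peak was nearly the same in both lists, and the weaker one ranked lower in the OVA list (percentile 17.9) than in the PBS list (percentile 29.0).

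Traf6, the ubiquitin ligase that passes the signal on to the kinase TAK1, had 2 peaks in each list on the plus strand of chromosome 2 (ENSMUSG00000027164). The first spanned 3 exons, from 101691428 to 101697683 in the OVA list with a fold enrichment of 18.1 (percentile 89.5), and from 101691458 to 101697683 in the PBS list with a fold enrichment of 19.0 (percentile 92.2). Of its exonic bases, 1022 lay in the last block in both lists. The second began 3145 bp further on at 101700829 in both lists. It was weak, with a fold enrichment of 1.63 over 122 bp (OVA) and 1.74 over 92 bp (PBS). Traf6 was the signalling gene with the strongest peak, at a level within the range of the receptors. All 4 peaks were labelled 3' UTR and assigned to a processed transcript that ends upstream of them.

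Matching each OVA peak to the PBS peak of the same gene with the largest overlap gave 16 pairs. The percentile of fold enrichment was higher in the OVA list for 8 and higher in the PBS list for the other 8, while it was higher in the OVA list for 57.5% of the 21097 matched peaks of all genes. A gap of at least 10 percentile points towards the OVA list was seen in 3 pairs, on Irak4, Irak1 and the last Tlr5 peak, beside 24.0% of all matched peaks. A gap of that size towards the PBS list was seen in 2 pairs, the third Tlr5 peak and the first Irak2 peak, beside 15.6% of all matched peaks. The median size of the gap was 3.27 points over the 16 pairs and 7.47 points over all matched peaks. The pairs of Tlr2, Tlr4, Tlr6, Tlr1 and Traf6 all lay within 10 points. The edges were the same at both ends in 2 pairs and at 1 end in another 6.

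**Figure D2:**
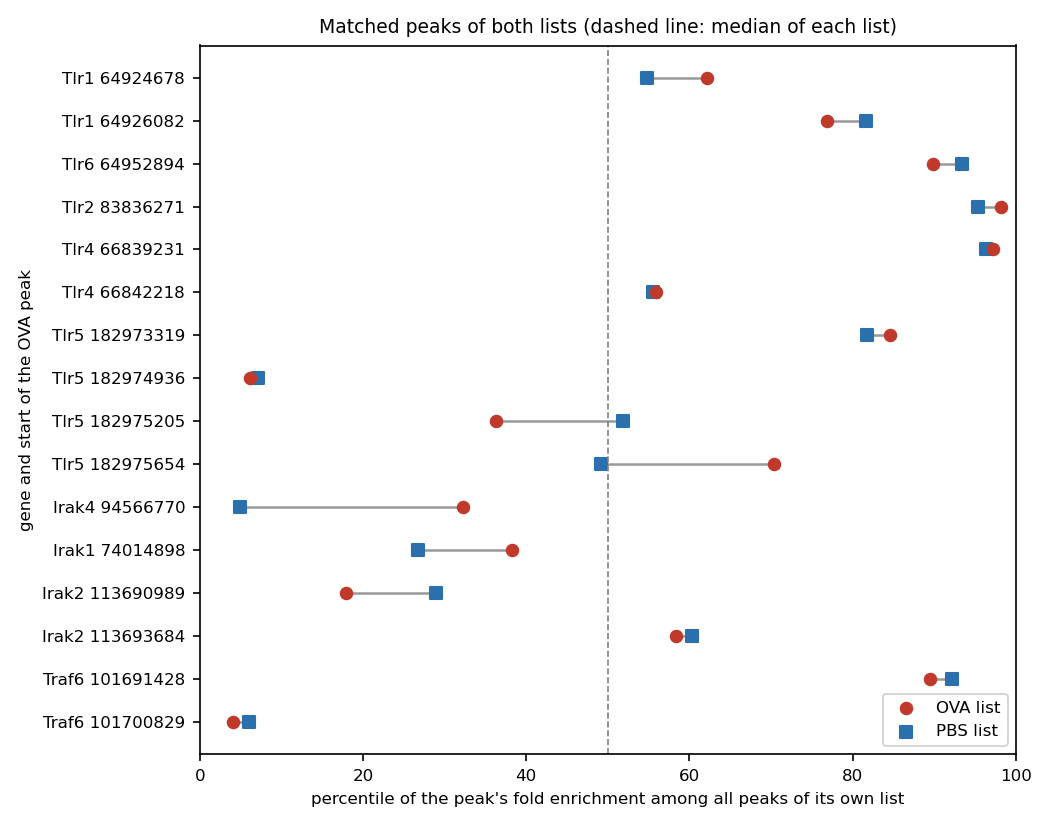
Percentile of fold enrichment of each of the 16 matched peaks among all peaks of its own list, OVA list as red circles and PBS list as blue squares, with the median of each list as a dashed line; each row names the gene and the start of the OVA peak. The peaks of Tlr2, Tlr4 and Traf6 differ by under 3 points, and the widest gap is at Irak4, from percentile 4.96 in the PBS list to 32.3 in the OVA list.

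By the annotation's labels, 11 of 16 OVA peaks lay in the 3' UTR (68.8%, 95% Wilson interval 44.4 to 85.8%), 4 in an exon and 1 in the 5' UTR. In the PBS list 10 of 18 lay in the 3' UTR (55.6%, interval 33.7 to 75.4%), 7 in an exon and 1 in the 5' UTR. Over all peaks the 3' UTR share was 52.7% in both lists, inside both intervals. Each peak bears 1 label, and the wide peaks on Tlr1 and Tlr6 that were divided in the PBS list account for the 3 further exon labels there. The label need not tell where most bases of a wide peak lie. The Tlr6 OVA peak labelled 3' UTR contained all 1671 bp of a PBS peak labelled exon. Assignment to a transcript that is not protein-coding was frequent. It held for 9 of 16 OVA peaks and 9 of 18 PBS peaks, beside 54.1% and 53.6% of all peaks called on protein-coding genes of RefSeq. It touched every peak of Tlr4, Irak2 and Traf6 and 3 of the 4 Tlr5 peaks in each list.

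Of 36 other genes of the pathway, 31 had a peak in both lists, 2 in the OVA list only, 0 in the PBS list only and 3 in neither. Of all genes with a peak in either list, 10.8% had one in OVA lung only and 7.22% in PBS lung only. Ligand-binding partners at the surface (Cd14, Ly96, Lbp, Cd36, Cd180 and Ly86) had 3 of 6 genes in both lists. Ly96, which encodes the MD-2 protein bound to Tlr4, and the scavenger receptor Cd36 had no peak called on them in either list. Lbp, which carries lipopolysaccharide to Cd14, had a peak in the OVA list only, from 158332612 to 158332792 on chromosome 2 in the 3' UTR, with a fold enrichment of 3.59 and an FDR of 0.00457. Among the negative regulators (Irak3, Tollip, Sigirr, Tnfaip3, Cyld and Il1rl1), 5 of 6 had a peak in both lists. Sigirr, a receptor-like inhibitor, had one in the OVA list only, from 141091651 to 141091771 on chromosome 7 in the 3' UTR, with a fold enrichment of 2.22 and an FDR of 0.000776. Both were weak peaks, at percentile 33.4 and 14.1 of the OVA list. All 3 receptor chaperones (Unc93b1, Hsp90b1 and Cnpy3) had a peak in both lists. The same held for all 10 genes of the downstream kinase and ubiquitin machinery (Map3k7, Tab1, Tab2, Tab3, Ube2n, Ube2v1, Peli1, Peli2, Peli3 and Ikbkg). So did 3 of the 4 other TIR-domain adaptors, Tirap, Ticam1 and Ticam2, while Sarm1 had none. These counts go by called gene. By assigned gene 27 of the 36 had a peak in both lists and 6 in neither. Every peak called on Tab1, Tab3, Peli3 and Il1rl1 was assigned to Mgat3, Gm44378, Dpp3 and Il18r1, respectively, while Ly96 had a peak in the PBS list by assignment. The peak called on Tirap in each list was assigned to the antisense gene Gm39318, but Tirap also had a peak in both lists by assignment.

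The 7 other Toll-like receptors, Tlr3, Tlr7, Tlr8, Tlr9, Tlr11, Tlr12 and Tlr13, which sense nucleic acids or, for Tlr11 and Tlr12, the parasite protein profilin, all had peaks in both lists. They too had long stretches under peaks, between 2389 and 3292 bp under OVA peaks and between 1318 and 2995 bp under PBS peaks. All 7 had more bases under OVA peaks than under PBS peaks. Of the cell-surface receptors 3 of 5 did, Tlr1, Tlr4 and Tlr6, and all 4 signalling genes did, beside 55.8% of the 12283 genes with a peak in both lists. The OVA to PBS ratio of bases had a median of 1.22 for the 7 other receptors, 1.01 for the 5 at the surface and 1.04 for all genes. The cell-surface receptors were thus close to the value of all genes, and no test was made of these differences.

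**Figure D3:**
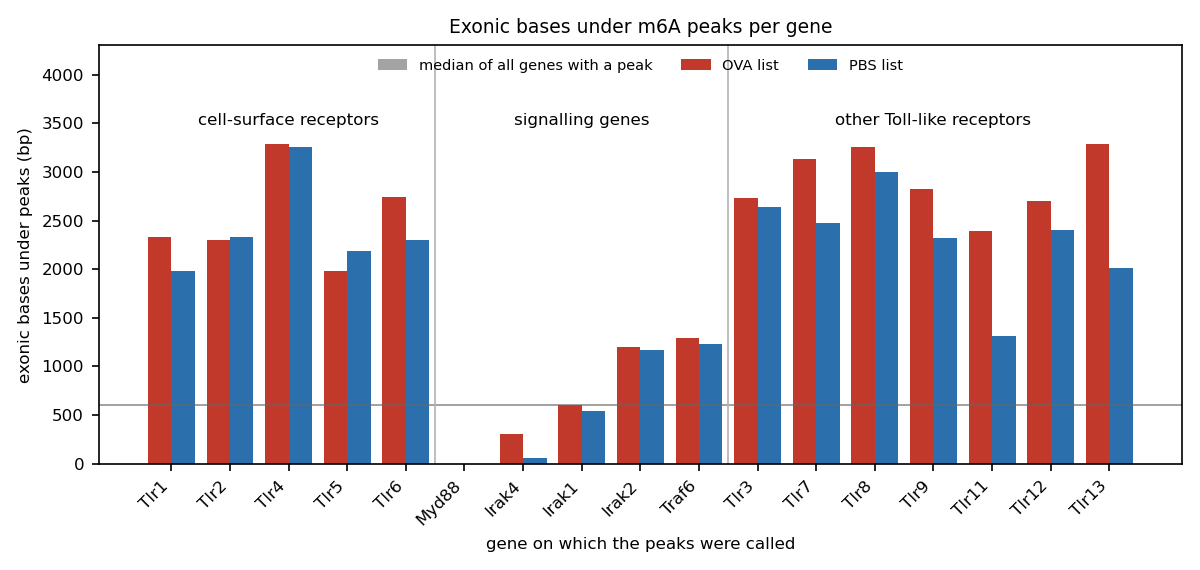
Exonic bases under peaks (bp) for each of the 10 genes and the 7 other Toll-like receptors, OVA list in red and PBS list in blue, with the median of all genes with a peak as a grey line. The receptors shown stand above the 5 signalling genes shown, within the same list, most narrowly Tlr11 in the PBS list, at 1318 bp against 1235 bp for Traf6, and Myd88 is at 0.

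The 3 other pathway genes with the highest fold enrichment in the OVA list were all receptors. Their peaks lay on Tlr12, from 128615502 to 128615862 on chromosome 4 (fold enrichment 111, matched PBS peak 13.2), on Tlr9, from 106225683 to 106226733 on chromosome 9 (41.3, matched PBS peak 12.0) and on Tlr13, from 106159356 to 106160493 on chromosome X (33.9, matched PBS peak 17.8). In the PBS list the highest were on Tlr11, from 50362888 to 50363484 on chromosome 14 (25.7, matched OVA peak 12.0), on Il1rl1, the receptor for interleukin-33, from 40461908 to 40462328 on chromosome 1 (25.0, matched OVA peak 12.3), and on the ubiquitin ligase Peli2, from 48256147 to 48256838 on chromosome 14 (21.7, matched OVA peak 27.6). In both lists these peaks on Tlr13 and Peli2 were assigned to the pseudogenes Gm14856 and Gm6498, and the Il1rl1 peak to Il18r1. All 6 peaks were labelled 3' UTR. They were chosen for their height in 1 list, so the values in the other list, lower in percentile for all but Peli2, are a description.

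Markers of lung and blood cells were read the same way, as genes with or without a peak, which needs both the transcript and its methylation. Of 6 lung epithelial markers, Sftpb, Scgb1a1, Foxj1 and Ager had a peak in both lists, and Sftpc and Epcam in neither. Both endothelial markers, Pecam1 and Cdh5, had a peak in both lists. Of 6 macrophage and monocyte markers, Csf1r, Mrc1 and Itgax had a peak in both lists, and Adgre1, Cd68 and Siglecf in neither. Of 7 neutrophil and eosinophil markers, Csf3r and Ccr3 had a peak in both lists, S100a8 (fold enrichment 2.15) and S100a9 (2.59) in the PBS list only, and Ly6g, Epx and Prg2 in neither. Over all genes with a peak in either list, 10.8% had one in OVA lung only and 7.22% in PBS lung only. The Ccr3 peak covered 1876 bp in the OVA list, with a fold enrichment of 13.0, but 62 bp in the PBS list, with a fold enrichment of 6.17. Of 4 markers of liver, heart and skeletal muscle, Myh6 had peaks in the PBS list only, with a highest fold enrichment of 3.30, and Alb, Apoa1 and Acta1 had none. Markers were counted by called gene. In both lists every peak called on Csf3r was assigned to Mrps15, and every peak called on Cdh5 to Gm45663. The part of cell numbers in the peaks of the Toll-like receptor genes was not tested.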

How the data were processed

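Per the labels and the study's methods, the authors cleaned the reads (FASTP), aligned them to the Ensembl mouse genome (HISAT2), called peaks of IP against input (exomePeak) and annotated these (ChIPseeker). They deposited 1 list per group of 3 mice, and how the mice were combined is not given in the sources used here. The deposited fold enrichment is the authors' ratio of IP over input. The deposited score is the log10 of a peak's FDR. Some peaks bear a score of minus infinity, the log10 of an FDR of 0, and these passed the limit of an FDR under 0.05. That such a score stands for an FDR too small to be written was not tested.

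Peaks were compared by overlap of exonic blocks of at least 1 bp. Matched peaks were called on the same gene and overlapped each other most. Shares have 95% Wilson intervals. The members and lists were chosen with earlier results of these data known. The 10 genes are named with all their peaks, and of 36 other pathway genes those with a peak in 1 list only and the 3 highest in each list. Marker genes are all named. The comparisons of matched percentiles and of exonic bases under peaks were added after seeing the data. Peak sequences and motifs were not analysed here. The work used pandas 2.3.3, numpy 2.4.6 and scipy 1.17.1 under Python 3.11.15, with figures by matplotlib 3.10.9. The overlap code was tested on simulated data.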

Additional observations from a re-analysis of the deposited data

How the results depend on the processing

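No paired analysis was possible because each group is 1 pooled list without values of single mice, and for the same reason no mouse could be left out. The search for motif letters was not run, since no genome was used here. Of 66 alternative values, 53 stayed within their limits and 13 moved. The limits were 1.5 times the main value for counts and the 95% Wilson interval for shares, while a median, which has no replicate error here, was taken as moved at any change.

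The absence of peaks without a counterpart rested on the overlap rule. Under identical start and end, 14 of 16 OVA and 16 of 18 PBS peaks had no counterpart, and under an overlap of 50% of both peaks 3 OVA and 5 PBS peaks had none, by construction of these stricter rules. With a fold enrichment of at least 2, 1 of 14 OVA peaks, on Irak4, had none. The shares of all peaks under the same rules were 89.7% and 89.3%, 31.4% and 28.3%, and 19.5% (OVA). It stayed at 0 with overlapping spans, an FDR under 0.05, called or assigned gene only, and protein-coding transcripts only. That last filter left 7 OVA and 9 PBS peaks, with median fold enrichments of 12.0 and 11.7. The medians were 8.98 (OVA) and 7.56 (PBS) with a fold enrichment of at least 2, and 7.96 (OVA) and 7.56 (PBS) with the assigned gene only. Between 2 and 3 other pathway genes had a peak in 1 list only under every setting tried. With assigned genes Ly96 joined Lbp and Sigirr, and with a fold enrichment of at least 2 Hsp90b1 did, both in the PBS list. With assigned genes, 27 in place of 31 of the 36 had a peak in both lists. The alternatives for matched percentiles and bases under peaks were chosen after seeing the data.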
